A study of Mus musculus with 8 samples.

Results

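The genes described here are those of antigen presentation by MHC class II in sorted endothelial cells of the mouse colon, early after bone marrow transplantation. They were taken from a list of 10 genes. It holds the class II chains H2-Aa, H2-Ab1 and H2-Eb1, the invariant chain Cd74, the peptide editor subunits H2-DMa and H2-DMb1, the transactivator Ciita, and the lysosomal genes Ctss, Lgmn and Ifi30. A gene was measured where a probe set carried exactly 1 gene symbol, which held for 9 of the 10 members and for 22180 genes in all. The probe set of Cd74 was annotated with a further gene and was not used.

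Class II molecules present peptides from lysosomes to CD4 T cells. An alpha and a beta chain assemble around the invariant chain, which lysosomal proteases trim until H2-DM exchanges its last piece for a peptide. Ciita is the master switch of the class II chain, invariant chain and H2-DM genes. In endothelium and epithelium it is best known as a target of interferon gamma. The chains H2-Aa and H2-Ab1 form the I-A molecule. C57BL/6 mice lack a working H2-Ea chain, so H2-Eb1 has no partner at their cell surface.

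All recipients were female C57BL/6 mice given busulfan and cyclophosphamide for 5 days before they received bone marrow and T cells. The allogeneic group (4 arrays) had LP/J donors, a strain matched with C57BL/6 at the classical MHC but not at minor antigens. The syngeneic group (4 arrays) had C57BL/6 donors. Colon was taken on day 2 after transplantation, and cells that carried CD31 and lacked CD45 and CD11b were sorted. The labels give neither ages nor pooling of animals, and all RNA was amplified from 700 pg. Values are log2 signals, so a difference of 1 is 2-fold. They ran from 1.39 to 13.9 over all probe sets, with array medians between 4.68 and 4.79, and the number of arrays limits the precision. Fewer cells of a type and less RNA per cell cannot be told apart in such samples.

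The labelled cell type was checked with marker lists. The endothelial genes Pecam1 (mean 10.1 allogeneic, 10.6 syngeneic) and Cdh5 (9.69 and 10.3) gave strong signals. The mean over 20 endothelial genes was 7.62 to 8.32 on allogeneic arrays, 8.22 and 7.90 on syngeneic arrays 1 and 2, and 8.95 and 9.80 on syngeneic arrays 3 and 4, which stood apart. All 20 had a negative log2 change (allogeneic minus syngeneic), with a median of -0.66. None passed at an adjusted p below 0.05 in limma, and 6 had an unadjusted p below 0.05, against 13.2% of all genes. Colon epithelial genes were strong on every array, with a mean over 19 genes of 10.3 to 10.5 in the allogeneic group and 9.72 to 10.3 in the syngeneic group, and were lowest on the same 2 arrays. Of these, 17 had a positive and 2 a negative log2 change, with a median of 0.18. None passed in limma, and 6 had an unadjusted p below 0.05. The groups of 5 did not overlap, against 8.55% of all genes. Values of the members therefore cannot be assigned to endothelial cells alone. B cell genes, a further source of class II, averaged 4.05 to 4.25 over 9 genes, below the array medians, and 3 Y-linked genes averaged 2.67 to 3.02 in these female recipients.

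Promoter stretches are shown for 3 class II genes and for Ctss because class II genes share a control region that Ciita works through. The allogeneic mean was lower than the syngeneic one for these 3 and higher for Ctss. None of these differences passed at an adjusted p below 0.05 in limma. RefSeq promoter windows of 300 bases (GRCm38.p6, 250 before to 50 after the start site) were at hand for 7 of the 10 members. Those of H2-Ab1, Cd74 and Ciita were missing. Each line runs 5′ to 3′ on the gene's strand from position -110 to -11, and capitals mark the motif matches named below. They lie at chr17:34287834-34287933 (minus strand) for H2-Aa, chr17:34305757-34305856 (plus) for H2-Eb1, chr17:34153081-34153180 (plus) for H2-DMb1 and chr3:95526676-95526775 (plus) for Ctss.
H2-Aa: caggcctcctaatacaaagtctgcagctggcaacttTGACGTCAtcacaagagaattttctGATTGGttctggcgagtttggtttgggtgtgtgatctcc
H2-Eb1: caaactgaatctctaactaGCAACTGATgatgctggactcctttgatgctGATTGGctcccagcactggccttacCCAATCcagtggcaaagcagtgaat
H2-DMb1: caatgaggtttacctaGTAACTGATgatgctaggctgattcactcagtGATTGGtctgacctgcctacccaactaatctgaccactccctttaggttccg
Ctss: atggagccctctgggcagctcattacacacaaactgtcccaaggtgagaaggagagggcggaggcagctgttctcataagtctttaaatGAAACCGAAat

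Both strands were searched for 4 motifs, and no matches overlapped. The Y box core GATTGG, bound by NF-Y, stood in the H2-Aa, H2-Eb1 and H2-DMb1 stretches, on H2-Eb1 on both strands, and in 16.1% of all 32851 windows. It also stood in 1 of the 2 windows of H2-DMa. The X box core GNNACNGAT, a site type of RFX factors, matched in H2-Eb1 from -91 and in H2-DMb1 from -94, and in 7.82% of all windows. The X2 palindrome TGACGTCA, a site type of CREB factors, matched in H2-Aa from -74 and in 1.79% of windows. The windows of Ctss, Lgmn and Ifi30 held none of these 3. Ctss held the core of an interferon-stimulated response element, GAAANNGAA, from -21, which 8.56% of windows hold. A match describes the letters and shows no binding, and a missing match to these strict letters does not show that a site is absent.

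The comparison of donors asked whether the class II genes of the sorted cells differed on day 2. None of the 9 measured members passed at an adjusted p below 0.05 in limma, and 3 (H2-Aa, H2-Ab1 and Ctss) had an unadjusted p below 0.05. Over all 22180 genes 0.469% passed (0.356% higher and 0.113% lower in the allogeneic group), and 13.2% had an unadjusted p below 0.05. With each array centred on its median, 143 genes were called higher and 19 lower in place of 79 and 25. The 5 class II chain and H2-DM genes, Ciita and Lgmn had lower means in the allogeneic group, while Ctss and Ifi30 had higher ones. The median log2 change was -0.18 over the members and -0.005 over all genes.

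H2-Ab1, the beta chain of I-A, gave 10.56, 10.42, 11.31 and 9.88 on allogeneic arrays 1 to 4 and 11.25, 11.17, 11.10 and 11.38 on the syngeneic ones. Allogeneic arrays 1, 2 and 4 lay below every syngeneic array, and array 3 lay among them. The means were 10.5 ± 0.59 and 11.2 ± 0.12 (SD, n = 4 each), a log2 difference of -0.68 ± 0.24 (SE, limma adjusted p = 0.241) with a 95% interval from -1.21 to -0.16. Without allogeneic array 3 the difference was -0.94 (limma adjusted p = 0.0534), and without allogeneic array 4 it was -0.46 (0.383).

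H2-Aa, the alpha chain of I-A, had the same order of allogeneic arrays. It gave 8.45, 8.39, 8.89 and 7.75 in the allogeneic group and 8.94, 8.71, 8.74 and 9.05 in the syngeneic group. Again 1 allogeneic array of 4, array 3, reached the syngeneic range. The log2 difference was -0.49 ± 0.21 (SE, limma adjusted p = 0.348, 95% interval from -0.96 to -0.03). It was -0.29 without allogeneic array 4 (limma adjusted p = 0.529).

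H2-Eb1 encodes the beta chain of I-E. Its allogeneic values were 7.83, 7.89, 8.90 and 7.66 and its syngeneic values 8.41, 8.26, 7.95 and 8.31. Allogeneic array 3 was the highest of all 8 arrays and the other allogeneic arrays were the 3 lowest. The log2 difference was -0.17 ± 0.25 (SE, limma adjusted p = 0.835, 95% interval from -0.71 to 0.38), -0.44 without allogeneic array 3 and -0.028 without allogeneic array 4.

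The H2-DM subunits load peptide inside the cell. H2-DMa gave 7.87, 7.70, 8.45 and 7.32 on allogeneic arrays and 8.26, 8.19, 7.27 and 8.56 on syngeneic arrays, with syngeneic array 3 the lowest of all. The groups overlapped widely, and the 95% interval of its log2 difference of -0.23 ran from -0.88 to 0.42 (limma adjusted p = 0.796). The difference moved with single arrays, to -0.061 without allogeneic array 4, -0.069 without syngeneic array 4, -0.44 without allogeneic array 3 and -0.50 without syngeneic array 3. H2-DMb1 stayed between 4.19 and 4.52 on all 8 arrays, below the array medians, so a change in it would be hard to see. Its log2 difference was -0.04 (limma adjusted p = 0.916), and 0.02 with arrays centred. H2-DMb1 has a near-identical neighbour, H2-DMb2, and probes could read both, so the values of both are uncertain.

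Ciita, on which the class II genes depend, was dimmer, at 5.87, 5.77, 6.49 and 5.74 in the allogeneic group and 6.50, 6.12, 6.11 and 6.67 in the syngeneic group. Its order resembled that of H2-Ab1, with allogeneic array 3 within the syngeneic range and the other 3 below it. The log2 difference was -0.38 ± 0.21 (SE, limma adjusted p = 0.467, 95% interval from -0.83 to 0.07).

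**Figure D1:**
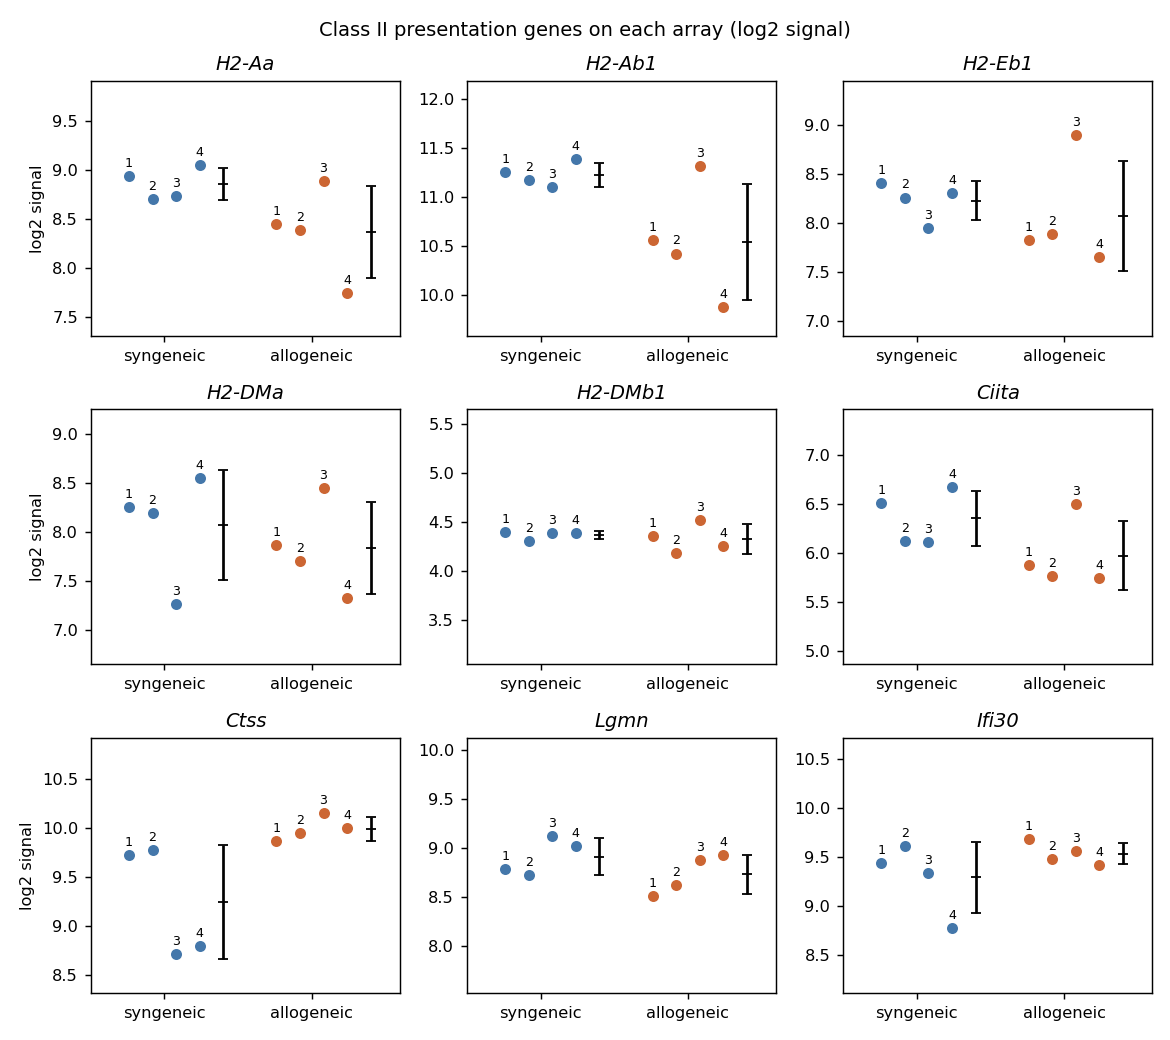
Log2 signal (vertical axis, the same span of 2.6 in each panel) of the 9 measured members on 4 syngeneic (blue) and 4 allogeneic (orange) arrays; numbers beside points are replicate numbers and black bars are the mean ± SD of each group. Allogeneic array 3 is the highest allogeneic point for the class II chains, H2-DM and Ciita, and Ctss is low on syngeneic arrays 3 and 4 (8.71 and 8.80).

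The allogeneic arrays differed among themselves more in class II chains than in most genes. The range over the 4 allogeneic arrays was 1.43 for H2-Ab1, 1.24 for H2-Eb1, 1.14 for H2-Aa and 1.13 for H2-DMa, against a median range of 0.41 over all genes. Wider ranges than that of H2-Ab1 occurred in 1.45% of genes. In the syngeneic group the ranges were 0.29 for H2-Ab1, 0.46 for H2-Eb1 and 0.34 for H2-Aa, against a median range of 0.49. H2-DMa differed from these chains, since its syngeneic range of 1.29 was wider than its allogeneic one and only 5.25% of genes had a wider one. Array 3 was the highest allogeneic array for 7 of the 9 members, and for 23.7% of all genes. Array 4 was the lowest for 6 of 9, and for 26.8% of all genes.

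Leukocyte genes had no common direction between the groups. Of 21 measured macrophage and dendritic cell genes none passed in limma, 1 had an unadjusted p below 0.05, and their mean was 5.66 to 6.22 in the allogeneic and 5.86 to 6.06 in the syngeneic group, highest on allogeneic array 3. Their log2 change was negative for 12 and positive for 9, with a median of -0.11, and allogeneic array 3 was the highest of its group for 14 of them. Some members of this list are named here after their values were seen. C1qb (0.33), Lyz2 (0.23), Mertk (0.22) and Fcgr1 (0.18), genes of macrophages, were among those with higher allogeneic means. Cd68 (-0.43), Mrc1 (-0.33), Adgre1 (-0.22), Cd14 (-0.16) and Itgam (-0.14), also genes of macrophages, were among those with lower ones. Itgax, which encodes CD11c and had the most negative change of the list (-0.67, limma adjusted p = 0.399), gave 5.33, 4.83, 6.44 and 5.00 on allogeneic and 6.27, 6.22, 6.14 and 5.64 on syngeneic arrays. Allogeneic arrays 1, 2 and 4 lay below every syngeneic array, as for H2-Ab1, and array 3 lay above them. Of the dendritic cell genes, Cd209a lay above the array medians on all 8 arrays (7.00 to 8.05). Zbtb46 at 4.52 to 6.05 and Ccr7 at 4.40 to 5.24 lay around or above them. Flt3 (3.19 to 3.96) and Xcr1 (4.09 to 4.66) lay below. The log2 change was negative for Zbtb46 (-0.56), Cd209a (-0.35), Flt3 (-0.26) and Xcr1 (-0.11), and positive for Ccr7 (0.07). The 1 gene of the list counted above by its unadjusted p was Zbtb46 (limma adjusted p = 0.354).

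A list of 10 genes shared by leukocytes had 5 negative and 5 positive changes, with a median of -0.02. Its mean was 5.09 to 5.71 in the allogeneic and 5.27 to 5.68 in the syngeneic group, none of its genes passed in limma, and 1 had an unadjusted p below 0.05. Allogeneic array 3 was the highest of its group for 7 of the 10, but not for Cd52, Was and Arhgdib. Sla, an adaptor gene of lymphocytes, was the 1 gene of these 10 whose groups did not overlap, against 8.55% of all genes. It gave 4.45 to 5.12 on allogeneic against 5.40 to 6.01 on syngeneic arrays (log2 -0.85, limma adjusted p = 0.0925). Ptprc, which encodes the excluded CD45, gave 4.85, 4.42, 6.18 and 5.36 against 5.71, 5.76, 4.69 and 4.61. Here the groups crossed, with allogeneic array 3 the highest of all. With the macrophage and dendritic mean of each array as a covariate, the log2 difference of H2-Ab1 was -0.58, that of H2-Aa -0.45 and that of H2-Eb1 -0.021.

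Ctss encodes cathepsin S, the protease that removes the last large part of the invariant chain. It gave 9.87, 9.95, 10.15 and 9.998 on allogeneic arrays and 9.72, 9.78, 8.71 and 8.80 on syngeneic arrays. It was the only member whose groups did not overlap (of all genes 8.55% did not, 5.18% with the allogeneic arrays higher and 3.36% with them lower), but the gap between the groups was small and the syngeneic arrays fell into a higher and a lower pair. The means were 9.99 ± 0.12 and 9.25 ± 0.58 (SD, n = 4 each), a log2 difference of 0.74 ± 0.24 (SE, limma adjusted p = 0.208, 95% interval from 0.22 to 1.26).

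The low pair, syngeneic arrays 3 and 4, was also the pair with the strongest endothelial and the weakest epithelial signal. Without both arrays the difference of Ctss was 0.24 (limma adjusted p = 0.442). With the epithelial mean as a covariate it was 0.20, and with the endothelial mean 0.41. The same settings gave -0.67, -0.47 and -0.62 for H2-Ab1 (limma adjusted p = 0.476, 0.801 and 0.478). H2-Aa was at -0.46, -0.26 and -0.44. Ciita was at -0.34, -0.17 and -0.22, H2-DMa at -0.39, -0.079 and -0.18, and H2-Eb1 at -0.27, -0.10 and -0.12. For each gene named in this paragraph, the epithelial covariate gave a smaller difference than the fit without covariates.

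Ifi30 encodes GILT, the thiol reductase that opens disulfide bonds of antigens in lysosomes. Its values were 9.68, 9.47, 9.56 and 9.42 in the allogeneic group and 9.43, 9.61, 9.33 and 8.77 in the syngeneic group, with syngeneic array 4 lowest. The log2 difference of 0.24 (95% interval from -0.13 to 0.62, limma adjusted p = 0.587) was 0.007 without syngeneic arrays 3 and 4 and turned to -0.12 with the epithelial covariate.

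Lgmn encodes legumain, an asparagine-specific protease that makes early cuts in antigens and in the invariant chain. It gave 8.51, 8.62, 8.88 and 8.93 on allogeneic and 8.78, 8.72, 9.12 and 9.01 on syngeneic arrays. Its groups overlapped, and the log2 difference was -0.18 (95% interval from -0.49 to 0.14, limma adjusted p = 0.647). It was -0.021 without syngeneic arrays 3 and 4, -0.038 with the epithelial and -0.009 with the endothelial covariate. Without allogeneic array 1 it was -0.10, and without syngeneic array 3 -0.11. Lgmn was highest on syngeneic array 3, where Ctss was lowest.

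The class II molecules were set against the processing enzymes within each array. The mean over the 5 measured class II molecules was 7.83 ± 0.43 in the allogeneic and 8.15 ± 0.20 in the syngeneic group. The mean over Ctss, Lgmn and Ifi30 was 9.42 ± 0.09 and 9.15 ± 0.24 (SD, n = 4 each). Their difference, class II minus processing, was -1.54, -1.63, -1.12 and -2.07 on allogeneic arrays and -1.06, -1.24, -1.17 and -0.52 on syngeneic arrays. Only its shift between groups can be read, since levels of different probes are not comparable. It was lower by 0.59 on average in the allogeneic group, and the groups overlapped through allogeneic array 3.

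The signal of H2-Ab1 minus that of Ctss was 0.69, 0.47, 1.16 and -0.12 on allogeneic arrays and 1.53, 1.39, 2.38 and 2.59 on syngeneic arrays. These groups did not overlap, and their means differed by -1.42. H2-Ab1 had the most negative and Ctss the most positive log2 change of the measured members, which by itself widens this difference. The share of gene pairs that separate in this way was not computed. H2-Ab1 was low on allogeneic arrays 1, 2 and 4, and Ctss was low on syngeneic arrays 3 and 4. Outside those arrays, allogeneic array 3 (1.16) still lay below syngeneic arrays 1 and 2 (1.53 and 1.39). No test was made of these differences, because the genes were chosen with results known.

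**Figure D2:**
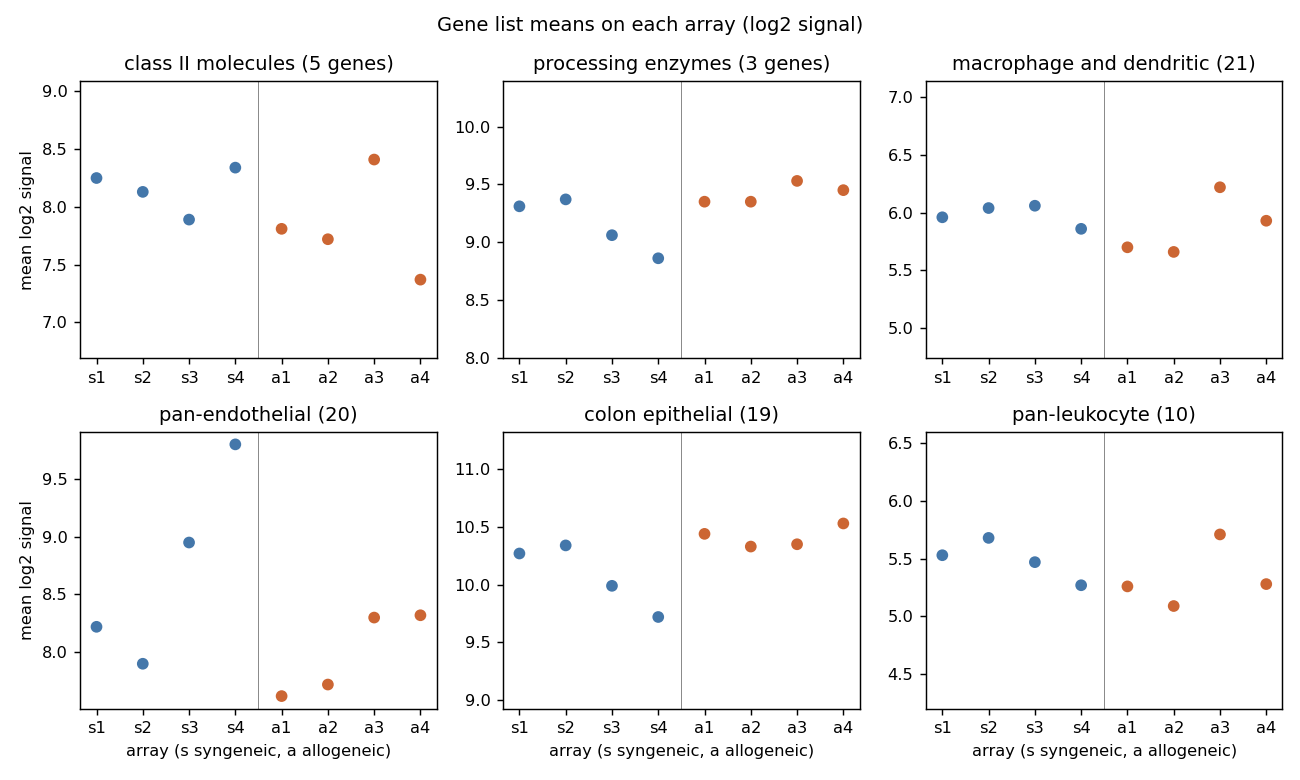
Mean log2 signal (vertical axis, the same span of 2.4 in each panel) of 6 gene lists on each array, syngeneic (s, blue) and allogeneic (a, orange). The class II mean is highest on allogeneic array 3 (8.41) and lowest on allogeneic array 4 (7.37), while the processing and epithelial means are lowest on syngeneic arrays 3 and 4.

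The genes with the most similar array pattern were found by the root mean square difference of centred log2 values over the 8 arrays. For H2-Ab1 the nearest gene was H2-Aa (0.147), then AW112010 (0.152), Pik3cb (0.200), Psat1 (0.217) and Myot (0.217), against a median of 0.547 over all genes. Ciita ranked 30 among all genes by this measure, H2-Eb1 ranked 84 and H2-DMa 447, while Ctss ranked 21534. For Ctss the nearest were Pla2g4a (0.097), Cdx2 (0.147), Fbp2 (0.159), Gipc2 (0.162) and Stra6l (0.169), against a median of 0.551. Cdx2, a transcription factor of intestinal epithelium that is also on the epithelial list, gave 8.27 to 8.42 on allogeneic arrays, 8.26 and 8.38 on syngeneic arrays 1 and 2, and 7.14 and 7.46 on syngeneic arrays 3 and 4. Among the members Ifi30 was nearest to Ctss, at rank 1147.

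Other genes of the pathway were taken from lists of 47 genes, of which 46 were measured and 2 passed, against 0.469% of all genes. Of 5 further class II genes none passed in limma and 1 had an unadjusted p below 0.05, 3 had a positive log2 change and the median was 0.16. H2-DMb2, the neighbour of H2-DMb1, gave 5.51, 4.83, 5.88 and 5.64 on allogeneic and 5.10, 3.91, 4.72 and 4.22 on syngeneic arrays, which overlapped. Its log2 difference of 0.98 ± 0.28 (SE, limma adjusted p = 0.159) had the opposite sign to that of H2-DMb1. H2-Oa, a subunit of H2-O, an inhibitor of H2-DM, was at 0.16 and H2-Eb2 at 0.30, both with signals below the array medians.

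The factors that bind the class II promoters are the RFX complex, NF-Y and CREB. Of these 7 genes none passed in limma and 0 had an unadjusted p below 0.05, while 6 had a negative log2 change and the median was -0.13. Rfx5, the subunit that binds the X box, was at -0.30 (limma adjusted p = 0.574), Rfxap at -0.27 (0.439) and Creb1 at -0.11 (0.720). Rfxap lay between 6.24 and 6.30 on allogeneic arrays and between 6.30 and 6.73 on syngeneic arrays.

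Of 9 measured genes on the route from interferon gamma to Ciita none passed in limma and 2 had an unadjusted p below 0.05, 5 had a positive log2 change and the median was 0.05. Ifng itself gave 4.44, 4.37, 4.45 and 4.70 on allogeneic arrays and 4.36, 4.33, 4.35 and 4.28 on syngeneic arrays. It was the 1 gene of these 9 whose groups did not overlap (log2 0.16, 95% interval from -0.10 to 0.41, limma adjusted p = 0.617), against 8.55% of all genes. All its values but that of allogeneic array 4 lay below every array median. Socs1, an inhibitor of this route that interferon gamma induces, gave 6.65, 6.73, 7.08 and 6.46 on allogeneic arrays and 7.62, 7.53, 7.00 and 7.37 on syngeneic arrays. Only allogeneic array 3 lay above the lowest syngeneic array, and the log2 difference was -0.65 ± 0.18 (SE, limma adjusted p = 0.146). Ifngr2, a receptor chain, was at 0.34 (limma adjusted p = 0.340), and Irf1, a transcription factor that acts on Ciita, at -0.27 (0.484).

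Of 17 further lysosomal proteases 2 rose and 15 did not pass, 10 had a positive log2 change and the median was 0.06. An unadjusted p below 0.05 was found for 4 of them, against 13.2% of all genes. Ctsh, which encodes the aminopeptidase cathepsin H, gave 9.54, 9.47, 9.55 and 9.48 on allogeneic arrays and 8.71, 9.03, 8.40 and 8.23 on syngeneic arrays. The groups were well apart, and Ctsh rose 1.89-fold (log2 0.92 ± 0.16 SE, limma adjusted p = 0.0435). Ctse, which encodes the aspartic protease cathepsin E, gave 7.83, 7.98, 7.31 and 8.43 against 6.13, 6.55, 6.73 and 5.45. It rose 3.19-fold (log2 1.67 ± 0.30 SE, limma adjusted p = 0.0443). Both were lost in 6 of 8 fits that left out 1 array (all but those without syngeneic array 2 or 4), with the epithelial covariate (0.57 and 1.19, limma adjusted p = 0.351 and 0.408), and without syngeneic arrays 3 and 4 (0.64 and 1.55, limma adjusted p = 0.0809 and 0.0764). With the replicate number as a block they were lost too (limma adjusted p = 0.0665 and 0.0787).

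The carboxypeptidase gene Prcp was at 0.70 (limma adjusted p = 0.081), with 9.001 to 9.43 on allogeneic and 8.26 to 8.81 on syngeneic arrays. Ctsz, another cathepsin gene, lay the other way without overlap, at 9.36 to 9.73 against 9.74 to 10.11 (log2 -0.29, limma adjusted p = 0.331). It is named because it was 1 of the 4 proteases among these 17 whose groups did not overlap, against 8.55% of all genes. Ctsb and Ctsd, abundant lysosomal cathepsins, were at -0.09 and -0.16. The log2 change of proteases thus ran from -0.29 to 1.67 and had no common direction.

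None of the 5 cathepsin inhibitors passed in limma, and 0 had an unadjusted p below 0.05 (median 0.05), with the leukocyte cystatin Cst7 at -0.32, Cst6 at -0.20 and the secreted cystatin C gene Cst3 at 0.17, which turned to -0.15 with the mean over its probe sets. None of the 3 genes of class II turnover passed either, and 0 had an unadjusted p below 0.05 (median 0.16). Marchf1 and Marchf8, ubiquitin ligases that remove class II molecules from the surface, were at 0.10 and 0.26. Cd83, which counters Marchf1, was at 0.16.

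**Figure D3:**
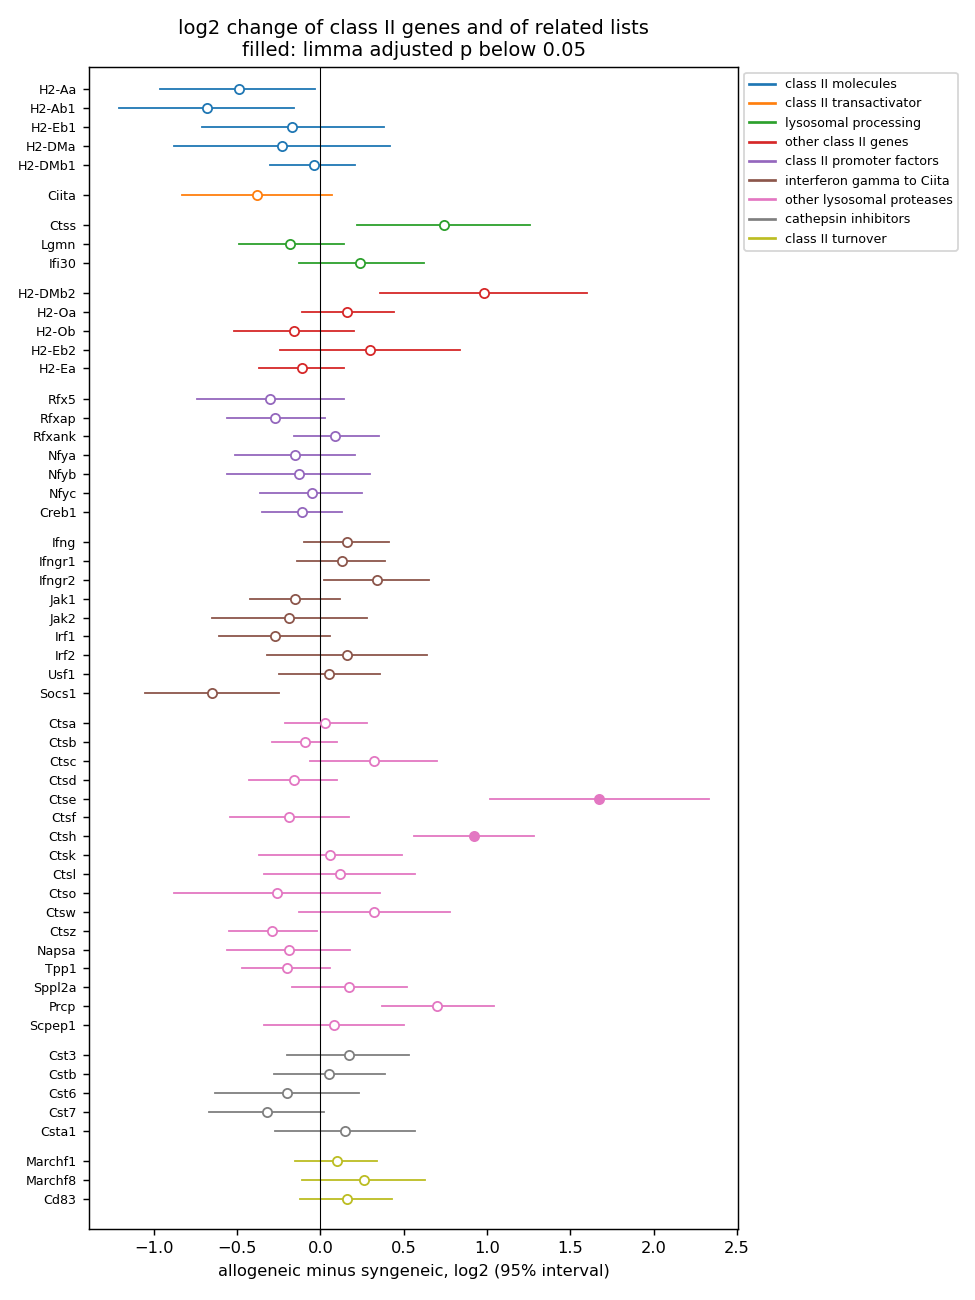
Log2 change (allogeneic minus syngeneic, horizontal axis, with the 95% interval as a line) of the 9 measured members and of 46 genes of 6 related lists, coloured by list. Only Ctse (1.67) and Ctsh (0.92) are filled, which marks a limma adjusted p below 0.05, and H2-Ab1 (-0.68) and Ctss (0.74) lie on opposite sides of 0.

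**Figure D4:**
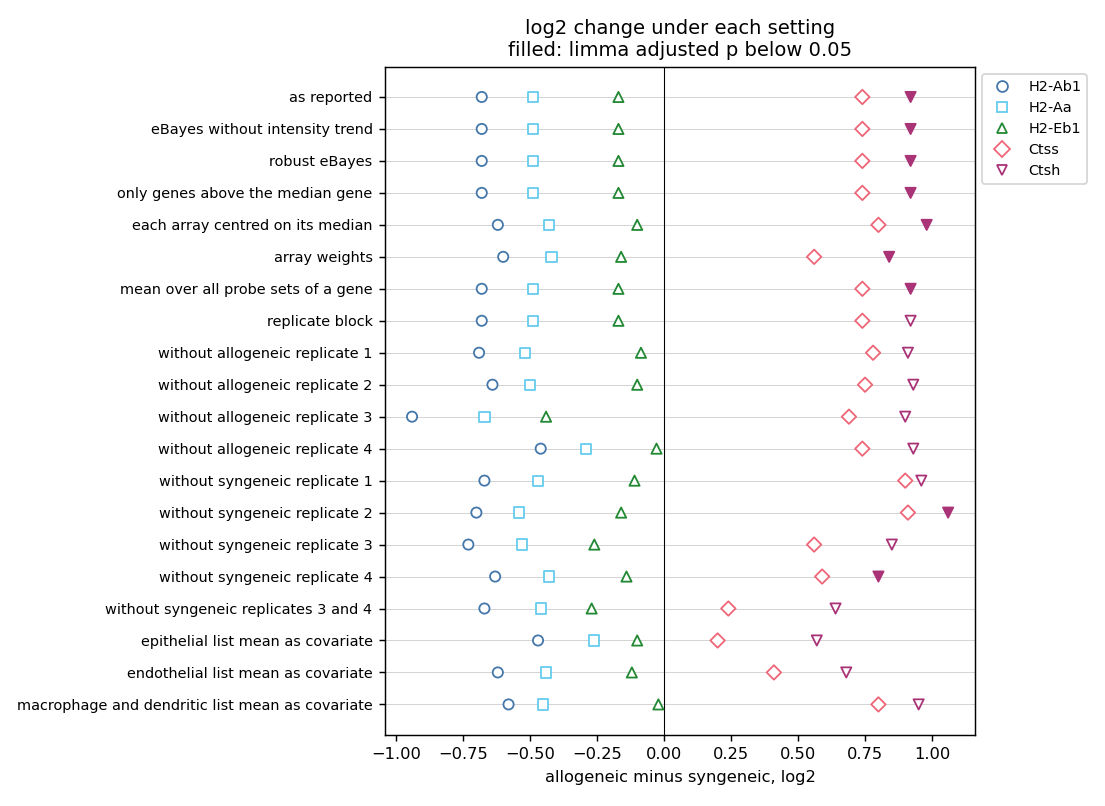
Log2 change (horizontal axis) of H2-Ab1, H2-Aa, H2-Eb1, Ctss and Ctsh as reported and under 19 other settings (vertical axis); filled points have a limma adjusted p below 0.05. H2-Ab1 stays between -0.94 and -0.46 and Ctss between 0.20 and 0.91, and Ctsh is the only one of these genes with filled points. The settings of variance prior, filter, replicate block and probe set mean cannot move these log2 changes.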

How the data were processed

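The deposited table gives log2 values per probe set of GeneChip Mouse Gene 2.0 arrays. The submitters' processing notes name Affymetrix Expression Console 1.4.1 and RMA, which corrects background, normalizes quantiles and summarizes probes. Probe annotation and build were not stated. Of 41345 probe sets, 23521 had 1 gene symbol in the platform annotation and were used. Where a gene had several, that with the highest mean of the 8 arrays was kept, and each measured member had 1. Groups and replicate numbers came from the titles, which name biological replicates.

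A linear model of the group was fitted to all 22180 genes with limma 3.58.1 in R 4.3.3 (eBayes with an intensity trend), with Benjamini-Hochberg adjustment over all genes and a threshold of 0.05. It was also run on simulated data with independent errors and changes set only in genes above the median level. That run does not cover shifts shared by many genes or the dim genes. No batch was given. Besides the members, genes named are the 3 of each pathway list with the smallest p, the 5 nearest to H2-Ab1 and Ctss, and markers. Itgax, Ptprc, Flt3, Xcr1, Ctsb, Ctsd, Ctsz and Ifng were picked once their values were known. So were C1qb, Lyz2, Fcgr1, Cd68, Mrc1, Adgre1, Cd14, Itgam, Zbtb46, Ccr7, Sla, Cd52, Was and Arhgdib. The members and lists were chosen with earlier results of these data known. T cell and fibroblast lists had array means of 4.25 to 4.57 and 7.58 to 8.38, and none of their 8 and 12 measured genes passed in limma (0 and 5 at an unadjusted p below 0.05). Alternatives covered the variance prior, filter, scaling, array weights, probe set rule, replicate block, threshold, arrays left out and covariates.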

Additional observations from a re-analysis of the deposited data

Results flagged for a closer look

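In 2 of the groups of 4 arrays, 1 array lay far from the others relative to the group's range. H2-DMb1 was low on syngeneic array 2 (4.31, the others 4.39 to 4.40), a gap that is small in itself because the whole group spanned 0.09. Cd83 was high on allogeneic array 3 (4.94, the others 4.65 to 4.67). Chance gives such a gap in about 1 in 20 groups, and 72 groups were examined.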

How the results depend on the processing

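No member passed the threshold of limma in any of the 20 alternatives, and H2-Aa, H2-Ab1, H2-Eb1, H2-DMa, Ciita, Ctss and Lgmn kept their direction in all of them. The variance prior settings, the filter on dim genes, the replicate block and the threshold cannot move a member's log2 change. Neither can the mean over probe sets, since each measured member had 1. Only centring, array weights, arrays left out and covariates could have turned a direction. H2-DMb1 reversed with arrays centred (0.02) and without allogeneic array 2 (range without 1 array -0.11 to 0.003), and Ifi30 with the epithelial (-0.12) and endothelial (-0.027) covariates. Rfx5 (0.003) and Marchf1 (-0.041) reversed with the epithelial covariate, and Cst3 (-0.15) with the mean over probe sets. The class II minus processing difference of -0.59 ranged from -0.75 to -0.43 without 1 array. The causes were not tested.

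Over all genes, 79 were called higher and 25 lower. Leaving out 1 array gave 4 to 145 higher and 4 to 35 lower, without syngeneic arrays 3 and 4 it gave 26 and 12, and the epithelial, endothelial and macrophage covariates gave 4 and 3, 19 and 9, and 16 and 6. The filter on dim genes gave 138 and 55, centring 143 higher, array weights 39 lower, and an adjusted p below 0.1 gave 203 and 102. The 2 pathway calls became 0 with each covariate, without syngeneic arrays 3 and 4 and with the block, and 0 to 3 without 1 array. H2-DMb1 fell under the filter and has no value there. Deviations of same-numbered arrays had correlations of 0.055, 0.046, -0.096 and 0.095, within the range for differently numbered arrays (-0.152 to 0.12). The labels give no pairing, and these correlations cannot show whether same-numbered samples were handled together. The replicate block gave 40 higher and 28 lower genes. With no detection calls, dim genes such as H2-DMb1 have uncertain values.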
